A study of Mus musculus with 24 samples.

Results

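The citric acid cycle oxidizes acetyl-CoA in the mitochondrial matrix and passes the electrons to the respiratory chain. The genes described here encode 9 of its enzymes or enzyme subunits: Cs, Idh2, Idh3a, Idh3b, Idh3g, Ogdh, Sucla2, Suclg1 and Mdh2. They were chosen by name, and each was read by the probe with the highest mean over all arrays among those annotated to it. Of the 9 genes, 8 had an annotated probe, and all 8 were among the 10934 genes tested of 16110 measured. Sucla2, a beta subunit of succinyl-CoA ligase, was not analysed here. On GRCm38.p6 the genes lie at chr10:128337727-128362482 (Cs), chr7:80094845-80118608 (Idh2), chr9:54586511-54604662 (Idh3a), chr2:130279309-130284451 (Idh3b), chrX:73778963-73786897 (Idh3g), chr11:6291597-6359094 (Ogdh), chr6:73248505-73276907 (Suclg1) and chr5:135778649-135790386 (Mdh2).

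Citrate synthase (Cs) joins acetyl-CoA to oxaloacetate. The NAD-dependent isocitrate dehydrogenase then oxidizes isocitrate, with Idh3a as its catalytic subunit and Idh3b and Idh3g as partner subunits. Idh2 encodes a separate mitochondrial isocitrate dehydrogenase that uses NADP, makes NADPH and can also run in reverse. Ogdh is the decarboxylating component of the oxoglutarate dehydrogenase complex, Suclg1 is the alpha subunit of succinyl-CoA ligase, and Mdh2 regenerates oxaloacetate from malate. Heart muscle, which draws most of its ATP from oxidative metabolism, is rich in mitochondria, and these enzymes are classic markers of mitochondrial content.

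RNA came from heart, liver and brain of 5-week-old female C57BL/6 mice. The mice received an aqueous extract of Ephedra herba by mouth at 50 mg/kg and were sampled after 1, 6, 12 and 24 hours and after 3, 5 and 10 days; untreated mice were the control. There were 24 Illumina bead arrays, 1 for each tissue at each time and 1 untreated array per tissue, so no tissue and time was replicated. Repeat dosing, pooling of animals and sharing of animals between the 3 tissues of a time are points the sources used here do not give.

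Values are the deposited log2 signals, on which 0 lies near the median of each array. Tests of a time used the 3 tissues as its replicates, so its p-values rest on the spread between tissues that may come from the same animals. A gene was called at a limma adjusted p under 0.05 over all 10934 genes tested. In these whole-tissue samples, fewer cells of a type and less RNA per cell cannot be told apart.

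The tissue labels matched their defining markers. Mbp averaged 8.31 in brain, Myh6 8.68 in heart and Apoa1 9.18 in liver, although Alb averaged only 1.67 in liver and Snap25 lay below the array median in brain. Some arrays also showed markers of another tissue, whose part was not tested. The mean of 4 heart genes was 1.04 and 0.85 on the 1 and 24 hour liver arrays, and -0.35 to -0.21 on the others. In brain it was 1.57 untreated, 0.61 and 1.29 at 5 and 10 days, and -0.39 to -0.15 elsewhere. The mean of 4 liver genes in heart was 2.11 untreated, 2.74, 1.67 and 0.98 at 1 and 6 hours and 10 days, and -0.19 to 0.24 elsewhere. Arrays of a tissue differed in the shape of their distribution. The 95th percentile of the liver arrays was 5.15 to 5.36 at 6, 12 and 24 hours and 4.13 to 4.52 on the other 5 liver arrays. In heart it was 4.36 to 4.44 at 6, 12 and 24 hours and 5 days, 4.63 at 3 days and 4.72 to 4.89 on the untreated, 1 hour and 10 day arrays. Quantile normalization, which forces the arrays to 1 distribution, was the alternative for this.

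Promoter windows from RefSeq (GRCm38.p6), from 250 bases before to 50 bases after an annotated start, were found for 8 of the 9 genes, in 13 windows. Of these, 3 are shown: Idh2, because its level changed with time, and Idh3b and Idh3g, because they encode subunits of 1 enzyme and had opposite heart-to-brain differences. The Idh2 window lies at the start the table lists, inside the gene's outermost annotated bounds. Capitals mark the ETS core CCGGAAG on either strand, the only motif found in these 3 windows.
Idh2, chr7:80115301-80115600, minus strand: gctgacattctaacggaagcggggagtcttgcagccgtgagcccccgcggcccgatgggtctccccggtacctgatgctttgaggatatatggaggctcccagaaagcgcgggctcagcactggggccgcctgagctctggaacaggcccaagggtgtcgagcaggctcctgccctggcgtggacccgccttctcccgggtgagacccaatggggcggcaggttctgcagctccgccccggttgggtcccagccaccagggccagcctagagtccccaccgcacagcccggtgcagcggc
Idh3b, chr2:130284402-130284701, minus strand: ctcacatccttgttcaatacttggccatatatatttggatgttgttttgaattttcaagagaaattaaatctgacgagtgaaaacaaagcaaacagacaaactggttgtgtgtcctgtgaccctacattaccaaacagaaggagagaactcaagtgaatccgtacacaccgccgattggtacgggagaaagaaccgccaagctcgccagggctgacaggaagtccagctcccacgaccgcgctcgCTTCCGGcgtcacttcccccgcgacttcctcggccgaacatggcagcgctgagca
Idh3g, chrX:73786848-73787147, minus strand: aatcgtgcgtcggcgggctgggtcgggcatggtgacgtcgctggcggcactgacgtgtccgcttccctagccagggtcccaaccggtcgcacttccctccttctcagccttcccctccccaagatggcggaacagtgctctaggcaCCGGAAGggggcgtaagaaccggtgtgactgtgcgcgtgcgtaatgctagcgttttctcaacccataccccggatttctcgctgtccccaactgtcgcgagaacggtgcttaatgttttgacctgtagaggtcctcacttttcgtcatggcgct

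Each window was searched on both strands for 3 motifs: AAGGTCA, which estrogen-related receptors bind, the palindromic NRF1 motif, and CCGGAAG. They occurred in 4.72%, 4.6% and 8.86% of all 32851 windows of this length. The Idh3b window held the ETS core beginning 5 bases before the start, on the opposite strand, and the Idh3g window held it 104 bases before the start. The Idh2, Cs, Mdh2 and Suclg1 windows held none of these letters. Of 6 Ogdh windows, 1 held AAGGTCA, 5 bases before the start, and the Sucla2 window held the NRF1 motif 17 bases before it. The Idh2 window was 68.3% G and C, against a median of 52.7% over all windows. All 13 windows held more CpG dinucleotides (11 to 37) than the median window (7).

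Idh2 was the 1 gene among the 8 that was called at any time after dosing. On the heart arrays it was 4.98 untreated and 5.30 at 1 hour, then 6.80, 6.64 and 6.47 at 6, 12 and 24 hours, 6.72 and 6.79 at 3 and 5 days, and 5.44 at 10 days. On the liver arrays it was 1.64 untreated and then 2.03, 3.26, 2.94, 3.35, 3.28, 2.99 and 2.18 in the same order. On the brain arrays it was 0.64 untreated and then 0.66, 2.15, 1.64, 2.28, 1.63, 2.44 and 0.69. In each tissue the arrays of 6, 12 and 24 hours, 3 days and 5 days all lay above the untreated, 1 hour and 10 day arrays, with no overlap. The same separation was seen for 7.23% of tested genes in heart, 4.06% in liver and 7.67% in brain.

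**Figure D1:**
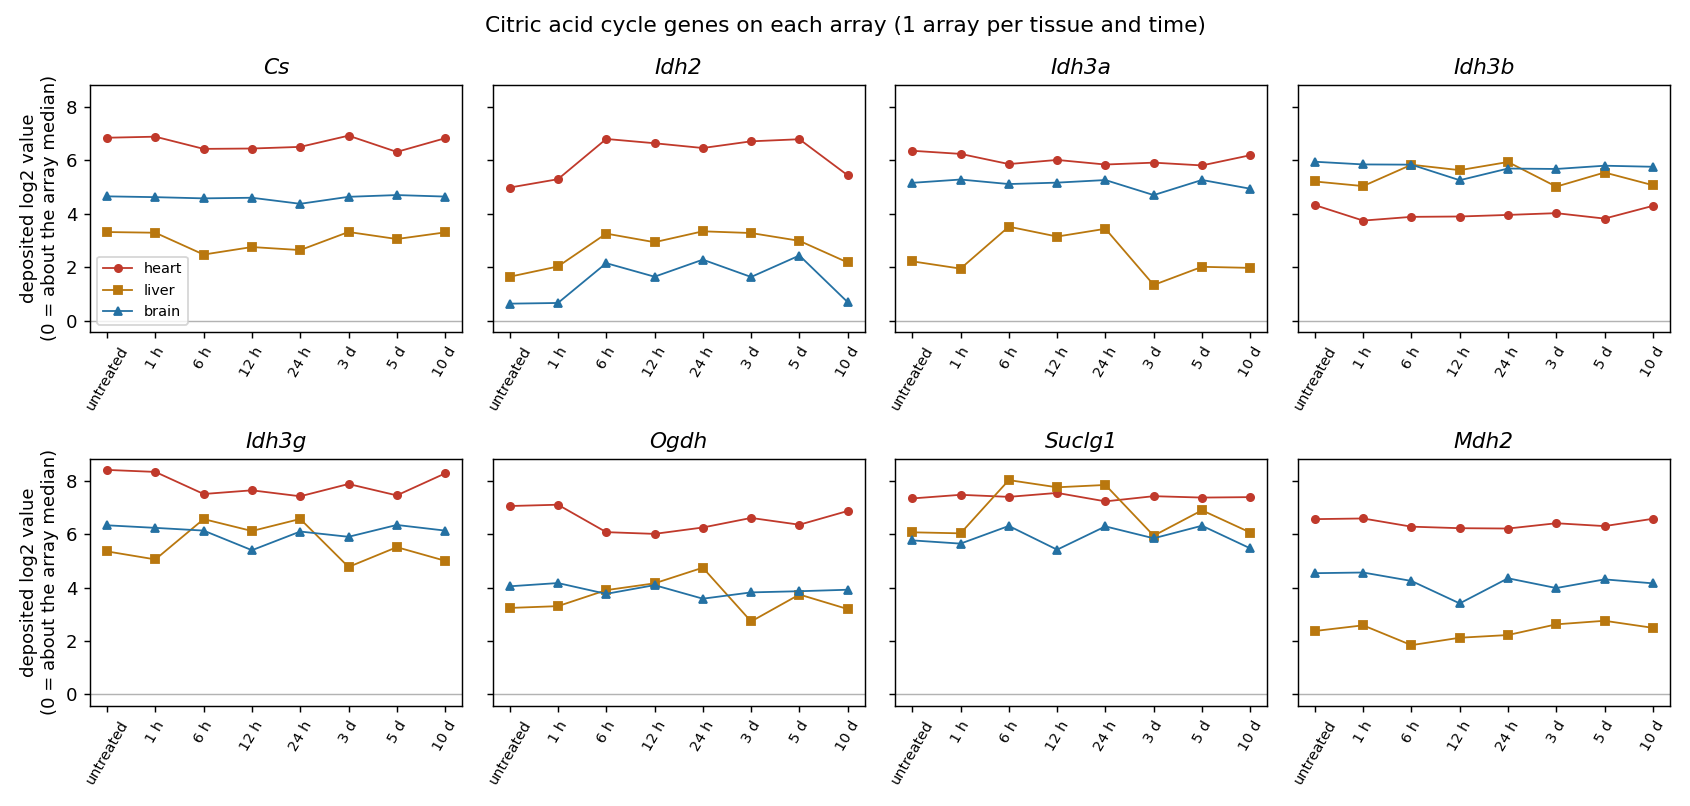
Deposited log2 values of the 8 genes (vertical axis, 0 near the array median) at each time (horizontal axis), with 1 point per array in heart (circles), liver (squares) and brain (triangles). Idh2 sits higher at 6 hours to 5 days in all 3 tissues, while Idh3a, Idh3g, Ogdh and Suclg1 are high at 6, 12 and 24 hours in liver.

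Across the tissues, Idh2 rose by 1.65 on the log2 scale at 6 hours, a 3.14-fold difference (SE 0.17, 3 arrays against 3, limma adjusted p = 0.000307). Its rises were 1.32 at 12 hours (adjusted p = 0.00205), 1.61 at 24 hours (adjusted p = 0.000361), 1.46 after 3 days (adjusted p = 0.00187) and 1.65 after 5 days (adjusted p = 0.000302), each time in 3 of 3 tissues. The differences of 0.24 at 1 hour and 0.35 at 10 days did not pass the test (adjusted p = 1 for each). By p, Idh2 ranked 1 of all 10934 genes at 6 and 24 hours, after 3 and 5 days and in the F test for any difference between times (adjusted p = 8.91e-05), and 3 at 12 hours. Among all tested genes, 1.08% were called higher and 2.25% lower at 6 hours, 1.32% and 4.05% at 12 hours, and 0.777% and 1.92% at 24 hours. The shares were 0.238% higher and 0.0823% lower after 3 days and 0.723% and 1.25% after 5 days. No gene was called at 1 hour or 10 days (0% each way), where 95 and 126 had an unadjusted limma p under 0.05. In the F test 4.31% of genes were called.

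The rise of Idh2 was of similar size in the 3 tissues. Against the untreated array of its own tissue, 1 array against 1, the 5 times gave 1.48 to 1.82 in heart, 1.29 to 1.70 in liver and 1.00 to 1.80 in brain. In rank among all probes of an array, Idh2 moved to the 99.01 to 99.33 percentile of the heart arrays at these times, against 95.3 to 97.1 on the other 3. It lay at the 86.6 to 91.5 percentile in liver, against 78.2 to 83.6, and at the 72.5 to 80.3 percentile in brain, against 60.6 to 61.4. A rank does not depend on the scaling of the array.

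Idh2 has 1 probe, so no other probe could check it. Without the heart arrays the differences at the 5 times were 1.15 to 1.67 and none passed (adjusted p = 0.213 to 0.98). In that fit 0% of all tested genes passed at any time. Without the brain arrays the 12 hour difference of 1.48 did not pass (adjusted p = 0.066), where 0.00915% of all tested genes passed. In heart the arrays of these 5 times also had a lower 95th percentile than the untreated, 1 hour and 10 day arrays, so there the time and the array distribution cannot be told apart. In liver and brain the split of Idh2 followed the 95th percentile only in part. In liver, 6, 12 and 24 hours lay above the other arrays, at 5.15 to 5.36. There 3 and 5 days, at 4.13 and 4.52, lay on either side of the untreated, 1 hour and 10 day arrays. In brain the untreated, 1 hour and 10 day arrays ranged from 4.62 to 4.81. The brain arrays of 6 and 12 hours and 3 days lay below that range, and those of 24 hours and 5 days within it. The part of the array distribution in the Idh2 split was not tested in liver or brain. Averaged over all 7 times, the treated arrays were 1.18 above the untreated arrays, which did not pass (SE 0.35, 21 arrays against 3, adjusted p = 0.427); 0 genes passed in that comparison, with 1215 at an unadjusted p under 0.05.

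**Figure D2:**
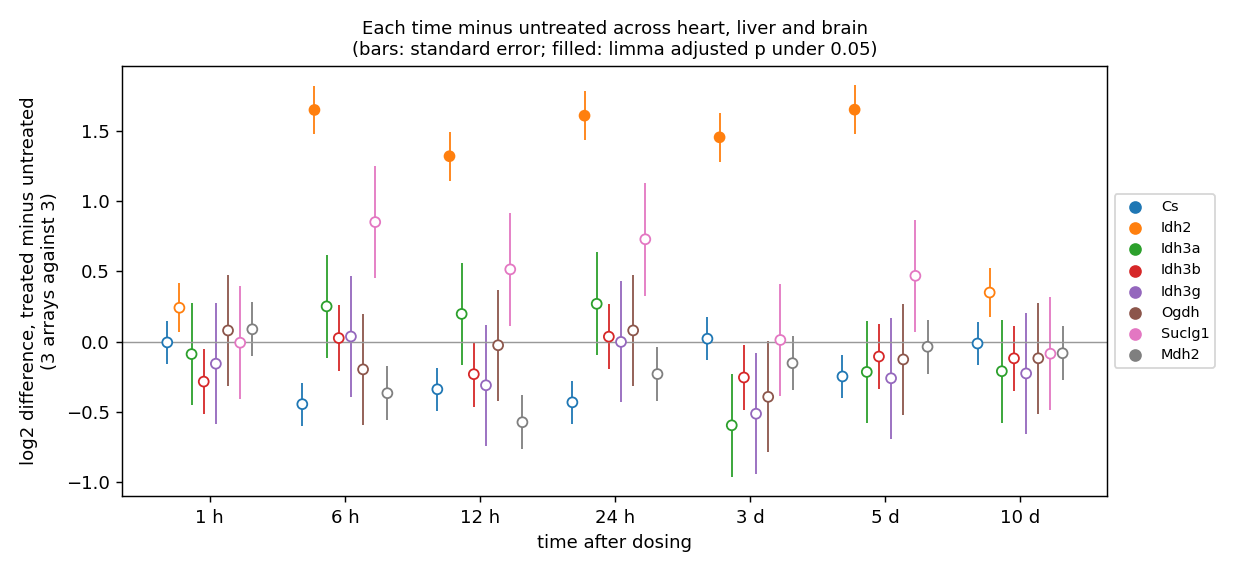
Log2 difference of each time minus untreated (vertical axis, 3 arrays against 3) for the 8 genes at 7 times (horizontal axis), with standard errors as bars and filled points for a limma adjusted p under 0.05. The filled points all belong to Idh2, at 6, 12 and 24 hours, 3 days and 5 days.

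Means of some marker lists, including the liver's own markers in liver, differed between the same sets of arrays. The mean of 4 measured red cell genes of 5 listed was 2.85 to 3.62 on the liver arrays of the 5 times and 2.61 to 2.83 on the other 3, while in heart the ranges overlapped (3.92 to 5.42, against 3.91 to 5.11). The mean of 3 skeletal muscle genes of 4 listed was 3.82 to 4.30 in heart, against 4.52 to 5.04, with Myh1 below the array median on all 8 heart arrays. Ckm (average 7.35) and Acta1 (6.13) carried that mean, so it cannot be read as skeletal muscle cells. The mean of 4 heart genes of 5 listed was 8.16 to 9.05 in heart, against 8.77 to 9.42. The mean of 4 endothelial genes was 0.40 to 0.66 in brain, against 0.71 to 0.87, with Kdr below the array median on all 8 brain arrays. The mean of 4 liver genes of 5 listed was 6.41 to 8.23 in liver, against 5.98 to 6.34. Their part in the Idh2 result was not tested.

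The other 7 genes were not called at any time. Their 49 differences ran from -0.60 (Idh3a at 3 days, SE 0.37) to 0.85 (Suclg1 at 6 hours, SE 0.40, adjusted p = 0.264). The lowest adjusted p among them was 0.0892, for Mdh2 at 12 hours (-0.57, SE 0.19). Over the 8 genes together the median difference was 0.03, -0.13 and 0.06 at 6, 12 and 24 hours and -0.20 and -0.12 after 3 and 5 days, beside medians of -0.04, -0.07, -0.04, -0.10 and -0.10 over all genes tested.

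Cs, which commits acetyl-CoA to the cycle, was lower by 0.45, 0.34 and 0.43 at 6, 12 and 24 hours (SE 0.15) without passing the test (adjusted p = 0.121, 0.213 and 0.141). On the liver arrays it was 3.32 untreated and 3.29 at 1 hour, then 2.47, 2.76 and 2.64 at 6, 12 and 24 hours, 3.32 and 3.06 at 3 and 5 days, and 3.31 at 10 days. The arrays of 6, 12 and 24 hours lay below the other 5, as for Mdh2 and for 13.1% of tested genes in liver. In rank, Cs lay at the 83.3 to 85.5 percentile on these 3 liver arrays and at the 89.3 to 91.7 percentile on the other 5. After quantile normalization within tissues, its 1-against-1 changes in liver were larger, at -1.18, -0.85 and -1.02, against -0.84, -0.56 and -0.68 as deposited. In heart that normalization turned them to 0.25, 0.23 and 0.51, from -0.42, -0.40 and -0.34. In brain they became 0.10, 0.31 and -0.14, from -0.08, -0.05 and -0.28. Over the alternatives the differences across tissues ran from -0.63 to -0.23, from -0.48 to -0.055 and from -0.51 to -0.21 at these times.

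Suclg1 had the largest deposited liver change of the 8 genes at 6, 12 and 24 hours. On the liver arrays it was 6.07 untreated and 6.03 at 1 hour, then 8.03, 7.76 and 7.84 at those times, 5.94 and 6.90 at 3 and 5 days, and 6.06 at 10 days. The changes against the untreated array were 1.96, 1.69 and 1.77 at 6, 12 and 24 hours, and 0.50, 0.41 and 0.18 after quantile normalization within tissues. That normalization called Suclg1 across tissues at 6 hours (0.73, adjusted p = 0.0191), at 5 days (0.63, adjusted p = 0.0448) and in the F test (adjusted p = 0.0278). Of all tested genes it called 2.14% higher at 6 hours, 1.4% higher at 5 days and 8.25% in the F test. A further Suclg1 probe, above the array median on 24 of 24 arrays, had liver changes of 2.32, 2.06 and 1.00 at 6, 12 and 24 hours, the same direction as the chosen probe. In heart its changes were -1.09, -0.78 and -1.399, and across tissues its differences of 0.33 at 6 hours and -0.19 at 24 hours did not pass (SE 0.55, limma adjusted p = 0.802 and 0.895).

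The subunits of the NAD-dependent enzyme had different liver patterns once the distribution was equalized. As deposited, Idh3a in liver was 3.52, 3.15 and 3.44 at 6, 12 and 24 hours, against 1.34 to 2.22 on the other 5 arrays. Idh3g was 6.57, 6.12 and 6.57, against 4.77 to 5.51, and Idh3b was 5.84, 5.64 and 5.94, against 5.02 to 5.55. With Ogdh and Suclg1, these made 5 of 8 genes whose 3 arrays lay above the other 5 in liver, as did 30.4% of all tested genes. After quantile normalization within tissues the changes of Idh3a stayed positive, at 0.92, 0.70 and 0.87. Those of Idh3g were -0.03, -0.29 and -0.14, against 1.21, 0.76 and 1.22 as deposited, and those of Idh3b were -0.53, -0.53 and -0.47, against 0.63, 0.42 and 0.73. In rank, Idh3a lay at the 87.7 to 89.0 percentile on these 3 arrays, against 76.0 to 83.0 on the other 5, whereas Idh3b lay at 96.1 to 96.2, against 97.2 to 97.4, and the ranges of Idh3g overlapped. After that normalization Idh3a alone of the 8 genes lay above the other 5 liver arrays, as did 14.8% of tested genes, and Cs, Idh3b and Mdh2 lay below them, as did 18.1%. These liver changes are 1 array against 1 and have no test.

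**Figure D3:**
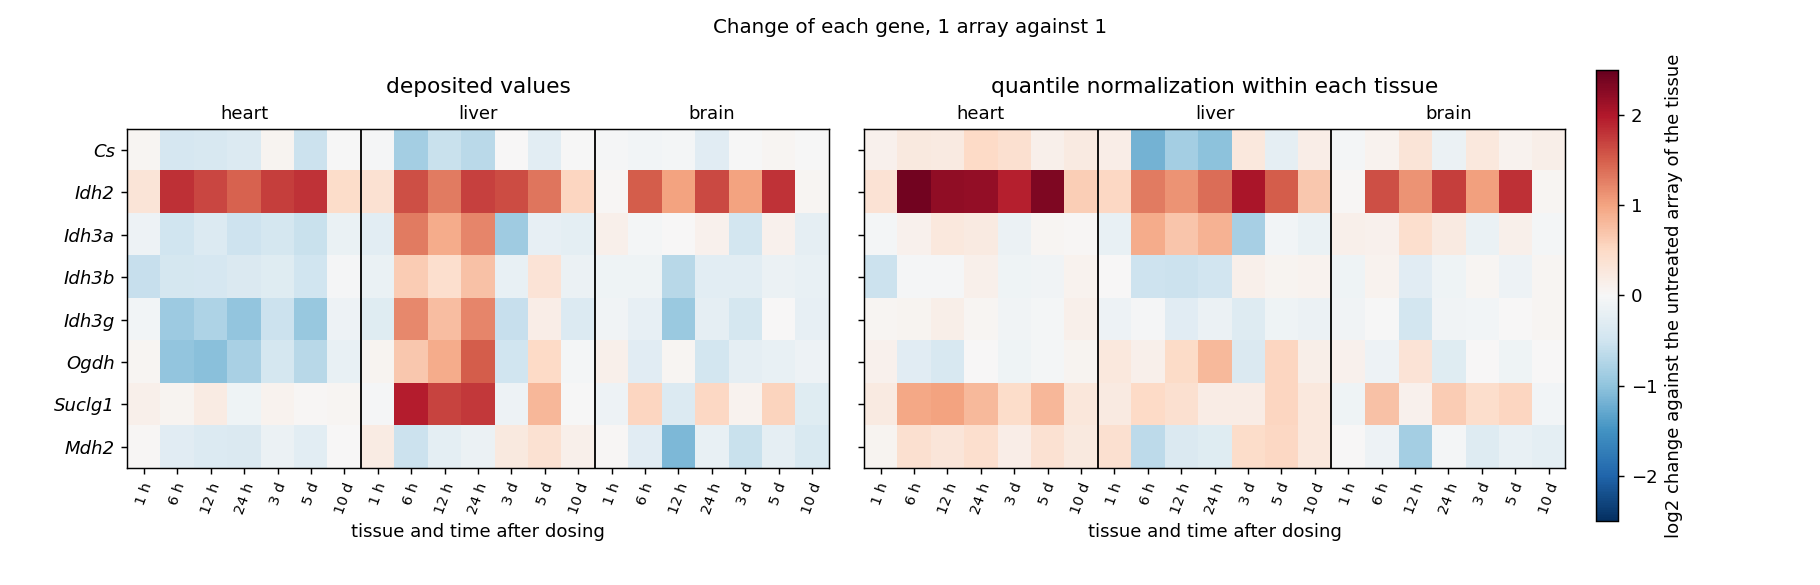
Log2 change of each gene (rows) on each treated array against the untreated array of its tissue (columns: heart, liver, brain, each from 1 hour to 10 days), as deposited (left) and after quantile normalization within tissues (right). Idh2 is positive at 6 hours to 5 days in both panels, whereas the positive liver changes of Idh3g and Idh3b at 6, 12 and 24 hours are absent on the right.

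In heart, Idh3a, Idh3g, Ogdh and Mdh2 lay lower on the arrays of the 5 times than on the other 3, as did 24.4% of all tested genes. Idh3g, for example, was 7.42 to 7.88 at these times and 8.28 to 8.41 on the untreated, 1 hour and 10 day arrays. After quantile normalization within tissues, 0 of the 8 genes lay lower on those heart arrays, against 11.4% of all tested genes, and Idh2 and Suclg1 lay higher, as did 11.2%. In brain, the 12 hour array was the lowest for Mdh2 (3.41), Idh3g (5.40), Idh3b (5.26) and Suclg1 (5.42). Without the liver arrays, 4 of the 8 genes were called at 12 hours: Idh2, and Idh3b (-0.56, adjusted p = 0.0391), Idh3g (-0.85, adjusted p = 0.0382) and Mdh2 (-0.74, adjusted p = 0.0235). In that fit 5.58% of all tested genes were called higher and 19.2% lower.

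**Figure D4:**
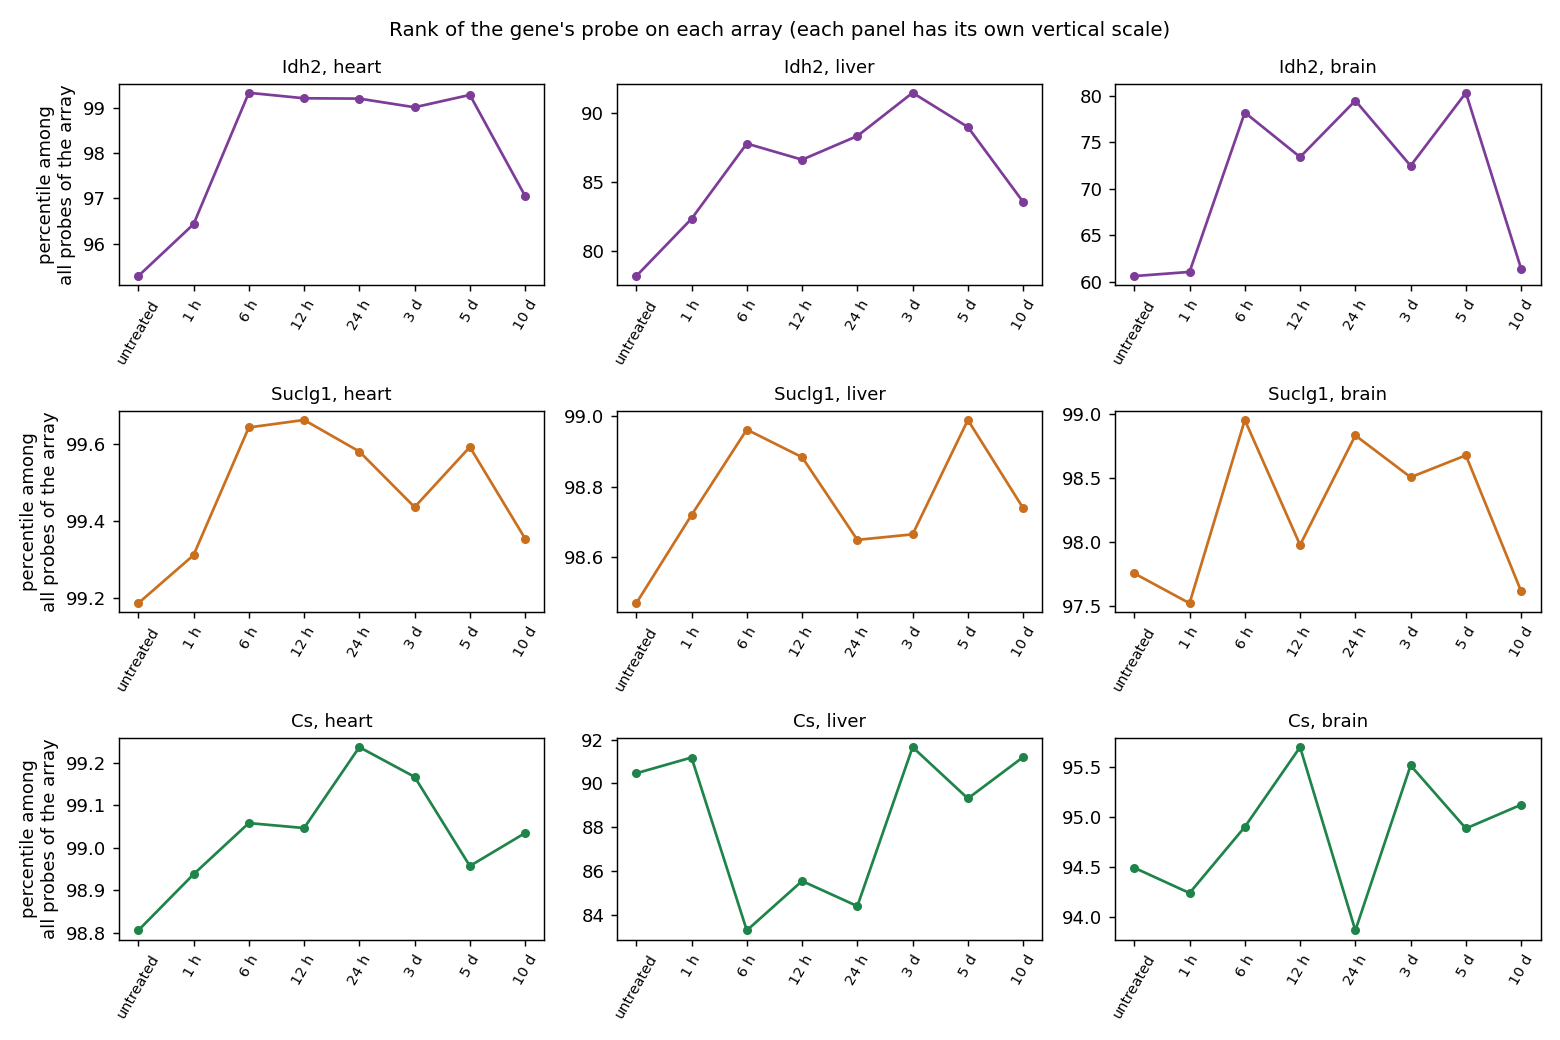
Percentile of the probe among all probes of the array (vertical axis, a separate scale in each panel) at each time (horizontal axis) for Idh2, Suclg1 and Cs (rows) in heart, liver and brain (columns), 1 point per array. Idh2 is higher at 6 hours to 5 days in every tissue, and Cs dips at 6, 12 and 24 hours in liver to 83.3 to 85.5.

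Treated against untreated within a tissue called 0 of the 8 genes in heart, liver or brain (7 arrays against 1, the lone untreated array being assumed to vary like the treated arrays). The share of all tested genes called was 0.11% in heart and 0 in liver and brain, with 612, 224 and 427 genes at an unadjusted p under 0.05 in heart, liver and brain. The differences ran from -0.62 (Idh3g) to 1.33 (Idh2) in heart, from -0.34 (Cs) to 1.22 (Idh2) in liver and from -0.39 (Mdh2) to 1.01 (Idh2) in brain. The test of whether the change differed between tissues called 0 of the 8 (0.0274% of all tested genes, with 104 at an unadjusted p under 0.05).

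Heart had the highest levels for most of the genes. All 8 differed from brain, 7 higher and 1 lower in heart, where 34.3% and 37% of all tested genes were called higher and lower (limma, 8 arrays each, with time as a block). The median difference was 1.92 over the 8 genes and 0.03 over all genes. Against liver, 6 were higher and 1 lower in heart, where 40.6% and 24.7% of all tested genes were called, and the medians were 3.18 and 0.12. Liver against brain gave 2 higher and 3 lower, where 30.6% and 45.6% were called, and the medians were -0.39 and -0.16. After quantile normalization within tissues all 8 differed between liver and brain, as did 79.9% of all tested genes.

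Cs averaged 6.65 ± 0.25 in heart, 3.02 ± 0.35 in liver and 4.60 ± 0.10 in brain (SD, n = 8). Mdh2, at the other end of the cycle, averaged 6.40 ± 0.16 in heart, 2.38 ± 0.30 in liver and 4.19 ± 0.37 in brain. Their order, heart then brain then liver, had no overlap between the arrays of the tissues. The heart minus liver differences of 3.63 for Cs (SE 0.09, limma adjusted p = 2.73e-16) and 4.02 for Mdh2 (SE 0.12, adjusted p = 1.48e-15) were about 12.4-fold and 16.2-fold.

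Idh2 had another order, with heart first, liver next and brain last. It averaged 6.14 ± 0.76 in heart, 2.71 ± 0.66 in liver and 1.52 ± 0.76 in brain (SD, n = 8), each spread including its change with time. Heart minus brain was 4.63 (SE 0.11, limma adjusted p = 1.92e-17), and liver minus brain was 1.19 (adjusted p = 8.7e-09). At every time the heart array was the highest and the brain array the lowest.

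The NAD-dependent enzyme's subunits did not share 1 tissue order. Idh3a averaged 6.03 ± 0.21 in heart, 2.45 ± 0.81 in liver and 5.11 ± 0.20 in brain (SD, n = 8). Idh3g averaged 7.87 ± 0.42 in heart, 5.62 ± 0.71 in liver and 6.07 ± 0.31 in brain. Idh3b was the exception, at 4.0 ± 0.21 in heart, 5.41 ± 0.37 in liver and 5.73 ± 0.21 in brain. It was lower in heart than in brain by 1.74 (SE 0.14, limma adjusted p = 3.09e-09) and lower than in liver by 1.42 (adjusted p = 6.71e-08), and its 8 heart arrays all lay below the other 16. Idh3b was read by 1 probe.

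Ogdh averaged 6.54 ± 0.43 in heart, 3.63 ± 0.64 in liver and 3.91 ± 0.19 in brain (SD, n = 8). Liver and brain did not differ beyond the test for Ogdh (liver minus brain -0.28, SE 0.24, limma adjusted p = 0.299), Idh3g (-0.45, SE 0.26, adjusted p = 0.127) or Idh3b (-0.32, SE 0.14, adjusted p = 0.0514). After quantile normalization within tissues all 3 were called lower in liver, Ogdh at -0.32 (adjusted p = 0.0292), Idh3g at -0.45 (adjusted p = 7.69e-06) and Idh3b at -0.28 (adjusted p = 0.0241). With the deposited arrays of 6, 12 and 24 hours and 5 days alone these 3 differences turned to 0.31, 0.20 and 0.09. With the untreated, 1 hour and 10 day arrays alone all 8 genes differed between liver and brain, as did 77.4% of all tested genes. A further Idh3g probe, above the median on 24 arrays, differed between liver and brain, at -1.198 (SE 0.23, adjusted p = 0.000156).

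Suclg1 averaged 7.40 ± 0.09 in heart, 6.83 ± 0.92 in liver and 5.88 ± 0.38 in brain (SD, n = 8). Liver was above brain by 0.95 (SE 0.25, limma adjusted p = 0.00203), and heart minus liver, at 0.57, did not pass (SE 0.25, adjusted p = 0.0511), although it did after quantile normalization within tissues (0.61, adjusted p = 1.56e-05). The further Suclg1 probe gave a heart minus liver difference of 1.39 (SE 0.34, adjusted p = 0.00153) and a liver minus brain difference of 0.60 that did not pass (adjusted p = 0.118). With the arrays of 6, 12 and 24 hours and 5 days alone, the heart minus liver difference of the chosen probe was -0.25 (adjusted p = 0.418).

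**Figure D5:**
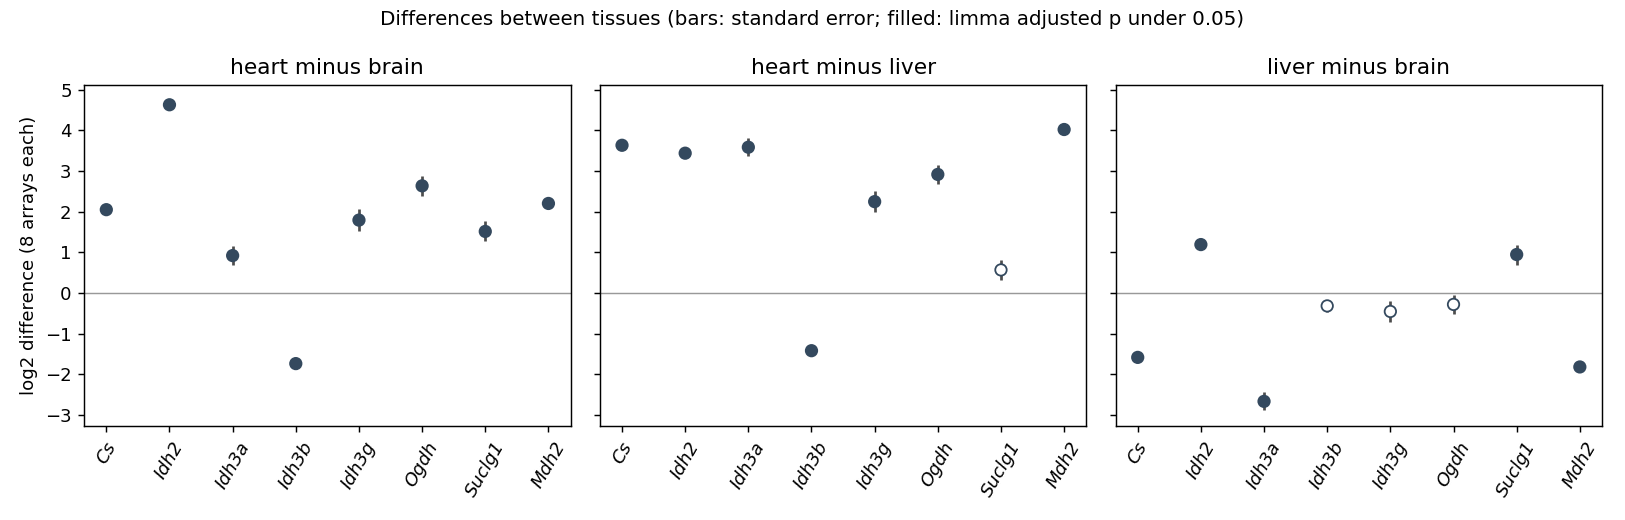
Log2 differences between tissues (vertical axis, 8 arrays each) for the 8 genes (horizontal axis), with standard errors as bars and filled points for a limma adjusted p under 0.05. Heart exceeds brain for all but Idh3b, and liver lies below brain for Cs, Idh3a and Mdh2 and above it for Idh2 and Suclg1.

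The other measured genes of the cycle's enzymes were also highest in heart for the most part. Of 9 listed, 7 were tested. All 7 were higher in heart than in brain (34.3% of all tested genes), led by Suclg2 (2.92), Sdhb (2.56) and Fh1 (2.52). Against liver, 6 were higher in heart (40.6% of all tested genes), led by Sdhb (2.07), Sdhc (1.44) and Sdhd (1.30), and Suclg2, the GTP-forming beta subunit of succinyl-CoA ligase, was lower by 0.50 (SE 0.20, limma adjusted p = 0.0359). In liver against brain, 5 of the 7 were higher (30.6% of all tested genes), led by Suclg2 (3.42), Fh1 (1.46) and Sdhc (1.07).

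With time, 1 of these 7 genes was called. It was higher at 6, 12 and 24 hours, as were 1.08%, 1.32% and 0.777% of all tested genes. Dld, the dihydrolipoamide dehydrogenase shared by the oxoglutarate and pyruvate dehydrogenase complexes, rose by 1.09, 1.11 and 1.07 at 6, 12 and 24 hours (SE 0.25, limma adjusted p = 0.0269, 0.0189 and 0.0297). On the heart arrays it was 2.09, 1.82 and 1.80 at these times, against 0.09 untreated. In brain it was 0.42, 0.76 and 0.56, against -0.45 untreated, and in liver 0.23, 0.23 and 0.34, against -0.15 untreated. The untreated brain and liver values lay below the array median, so the size of the change there is not exact. Each of the 3 calls was lost without the heart arrays (0.63 to 0.80, adjusted p = 0.331 to 0.528) and without the brain arrays (adjusted p = 0.282 to 0.377). At these times 0% of all tested genes were called without heart, and 0.00915% to 0.0549% without brain. The 12 hour call was also lost without the 12 hour brain array (adjusted p = 0.083). Sdhd was higher by 1.11, 0.91 and 1.07 at 6, 12 and 24 hours without passing (SE 0.31, limma adjusted p = 0.0571, 0.0982 and 0.0756). After 3 and 5 days it was higher by 1.16 and 1.19 (adjusted p = 0.13 and 0.0555), and its F test gave an adjusted p of 0.0516. The untreated brain value of Sdhd was low, at -0.25.

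Of 11 genes for cytosolic counterparts and metabolite shuttles, 1 was called lower at 12 hours, as were 4.05% of all tested genes. In treated heart 1 was called lower, as were 0.11% of all tested genes. Got1, the cytosolic aspartate aminotransferase of the malate-aspartate shuttle, fell by 0.70 at 12 hours (SE 0.18, limma adjusted p = 0.0322). That call was lost with quantile normalization within tissues (adjusted p = 0.136) or over all arrays (adjusted p = 0.122). It was also lost without the 12 hour brain array (adjusted p = 0.0678), and without the heart or the brain arrays (adjusted p = 0.302 and 0.362). With those arrays left out, 1.17%, 0% and 0.00915% of all tested genes were called lower at 12 hours, in the same order. Slc25a1, the mitochondrial citrate carrier, was 0.67 to 1.33 on the 7 treated heart arrays, against 2.61 on the untreated heart array. The difference of -1.67 was called (limma adjusted p = 0.0178) but not with quantile normalization of each tissue (adjusted p = 0.0689) or against the 1 hour and 10 day arrays alone (-1.42, adjusted p = 0.0513). The mean of its 2 probes moved by -1.10. On the untreated heart array the mean of 5 white fat genes was 3.12, against 0.11 to 1.03 on the treated ones; its part in the Slc25a1 result was not tested.

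The cytosolic isoforms had tissue orders unlike those of their mitochondrial partners. Idh1, the cytosolic NADP-dependent isocitrate dehydrogenase, averaged 3.48 in heart, 6.11 in liver and 2.82 in brain, and heart minus liver was -2.63 (SE 0.32, limma adjusted p = 9.37e-07), whereas for Idh2 it was 3.44. Aco1, the cytosolic aconitase, was likewise highest in liver, 1.64 above brain. Mdh1, the cytosolic malate dehydrogenase, was higher in heart than in liver, by 2.34, as was Mdh2. Over the list, heart exceeded brain for 7 genes and lay below it for 2, the heart and liver comparison gave 4 each way, and liver exceeded brain for 6 and lay below it for 3. Among all tested genes the higher and lower shares were 34.3% and 37% for heart against brain, 40.6% and 24.7% for heart against liver, and 30.6% and 45.6% for liver against brain.

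Of 7 listed regulators of mitochondrial genes, 6 were tested and 0 were called at any time or in the F test, where 4.31% of all tested genes were called. In heart, 5 of the 6 were higher than in brain (34.3% of all tested genes) and the same number higher than in liver (40.6%). Ppargc1a, a coactivator of mitochondrial gene expression, was 1.41 above brain and 2.64 above liver (SE 0.18). Esrra, the estrogen-related receptor alpha, was 1.57 above brain and 2.03 above liver (SE 0.22).

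The genes whose values followed Idh2 most closely over the 24 arrays, after the mean of each tissue was removed, were Atp5a1 (Pearson r = 0.976), Ndufb5 (r = 0.952) and Aldh6a1 (r = 0.945). They encode the alpha subunit of ATP synthase, a complex I subunit and an enzyme of valine breakdown. On the heart arrays Atp5a1 was 2.08 untreated and 2.60 at 1 hour, then 4.46, 4.60 and 4.46 at 6, 12 and 24 hours, 4.60 and 4.52 at 3 and 5 days, and 2.88 at 10 days, the same split of arrays as Idh2. These correlations are descriptive, since the arrays share their tissue and their time.

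Among the 8 genes themselves the correlations depended on the scaling. Idh3a and Idh3g had r = 0.872 over the 24 arrays as deposited and 0.045 after quantile normalization within tissues. Idh3b and Idh3g had 0.873 and 0.220. Idh2 and Suclg1 had 0.496 as deposited and 0.853 after that normalization. Cs and Idh3a had a negative r over the 24 arrays under both, at -0.614 as deposited and -0.823 after it. The tissues differed: as deposited, r was 0.701 within heart, -0.932 within liver and -0.251 within brain.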

How the data were processed

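Illumina bead arrays were hybridized with biotin-labelled cRNA, per the labels. The deposited table gives log2 values for 25697 probes; the base was taken as 2, and the authors' background correction and normalization are not stated in the labels. A second table, with 24 value columns that match no label, was not used, so detection p-values were not available. Of the probes, 23141 had 1 gene symbol, 0 had several and the rest had none. A gene was read by its probe with the highest mean and tested if above the array median on at least 4 of the 24 arrays. Linear models were fitted with limma 3.58.1 in R 4.3.3, two-sided, with Benjamini-Hochberg adjustment over 10934 genes. Time contrasts had tissue as a block, tissue contrasts had time. The fits were tested on simulated data. No 2 arrays were copies (highest correlation 0.996). The number of arrays limits the precision.

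The genes, lists and tests were chosen with earlier results of these data known. Named genes were all members, up to 3 called genes each way per list and contrast, and the 3 genes most like a member called in the F test. Alternatives were quantile normalization within tissues or over all arrays, a shift and scaling, other filters, probe means and other probes, a variance trend with robust eBayes, and leaving out arrays. Figures were drawn with matplotlib 3.10.9.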

Additional observations from a re-analysis of the deposited data

Results flagged for a closer look

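Each tissue's 8 arrays were searched for 1 array standing apart from the rest, by Dixon's test, in 24 gene and tissue groups. Chance flags about 1 in 20 such groups. In brain, Cs at 24 hours was the lowest of 8 at 4.38, with 4.58 as the nearest. Idh3b in brain at 12 hours was 5.26, with 5.68 as the nearest, and Idh3g on the same array was 5.40, with 5.90 as the nearest. On that array 9.61% of all tested genes were at least 2-fold below the untreated brain array, against 0.0366% to 1.75% on the other 6 treated brain arrays.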

How the results depend on the processing

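The heart minus brain count stayed at 8 and the heart minus liver count at 7 or 8 under the 9 alternatives tried for each. The shares of all tested genes called there were 62% to 75.9% and 61.7% to 70.1%. Liver minus brain gave 8 called genes, against 5, with quantile normalization within tissues and with the untreated, 1 hour and 10 day arrays alone. Of all tested genes, 79.9% and 77.4% were called in these settings. Quantile normalization within tissues gave 2 called genes, against 1, at 6 hours, at 5 days and in the F test for any time. In those tests it called 4.33%, 2.3% and 8.25% of all tested genes. Quantile normalization over all 24 arrays gave 2 at 6 hours, where it called 3.81% of all tested genes. Leaving out 1 tissue gave 0 to 4 called genes at 12 hours. At 6 hours, 24 hours, 3 days, 5 days and in the F test it gave 0 to 1. The lone 0 came from leaving out heart, and at 12 hours also from leaving out brain. Without heart, 0% of all tested genes were called at any time or in the F test. Without brain the share was 0.00915% to 0.0549% from 6 hours to 5 days, and without liver it was 24.8% at 12 hours. The smaller number of arrays left is part of these fits.

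Signs turned for Suclg1 at 24 hours with its other probes (-0.191 and -0.0109) and for Suclg1 in heart minus liver (-0.245 with the arrays of 6, 12 and 24 hours and 5 days alone, -0.067 with the probe that was above the median on 0 arrays). With those arrays alone liver minus brain turned to 0.0911 for Idh3b, 0.197 for Idh3g and 0.311 for Ogdh. The 1-against-1 liver changes of Idh3g turned at 6 hours (-0.026 and -0.0226 with quantile normalization within tissues and over all arrays) and at 24 hours (-0.139 and -0.116). The cause was not tested. Pdk2, lower at 6 hours by 0.84 (limma adjusted p = 0.0468), was not called with no filter (adjusted p = 0.0561) or with scaling (adjusted p = 0.0523). It was not called without heart or brain either (adjusted p = 0.499 and 0.275). In those last fits 0% and 0.0183% of all tested genes were called lower at 6 hours. Tissue contrasts were paired by time and time contrasts by tissue; no block by replicate number was possible, because the labels carry none.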

Other observations

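Genes that control the entry of pyruvate into the cycle differed between tissues. Of 13 listed, 10 were tested. In heart, 7 were higher and 3 lower than in brain (limma adjusted p under 0.05, 8 arrays each), where 34.3% and 37% of all tested genes were called higher and lower. Pdk4, a kinase that inhibits pyruvate dehydrogenase, was higher by 4.91, Pdhb, a pyruvate dehydrogenase subunit, by 2.38 and Pdk2, another kinase, by 2.14. Pdk3 was lower in heart than in brain by 1.78, the phosphatase gene Pdp1 by 1.11 and Pcx, the pyruvate carboxylase, by 0.36. Against liver, 7 were higher in heart, led by Pdk4 (4.93), Pdhb (3.42) and Dlat (3.31), and Pcx was lower (-2.56), beside 40.6% higher and 24.7% lower over all tested genes. In liver against brain, 3 were higher and 4 lower, beside 30.6% and 45.6% over all tested genes. Pcx (2.20), Pdp2 (1.70) and Pdk1 (1.46) were higher, and Pdp1 (-3.30), Pdk3 (-2.32) and Dlat (-2.06) were the largest of the lower ones. Pdk3 and Pdp1 averaged below the array median in liver, at -0.20 and -0.13, so the sizes there are not exact.

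With time, 1 of the 10 was called, lower at 6 hours, as were 2.25% of all tested genes. Pdk2 was 3.07 at 6 hours in heart, against 4.21 untreated, 1.11 in liver, against 1.98 untreated, and 1.27 in brain, against 1.78 untreated. The mean difference was -0.84 (SE 0.22, limma adjusted p = 0.0468).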
